A study of Homo sapiens with 17 samples.

Results

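The genes described here are 10 receptor tyrosine kinases that have been followed in glioma, namely EGFR, ERBB2, ERBB3, PDGFRB, FGFR1, FGFR2, MET, AXL, IGF1R and KIT. They were taken from the RNA-Seq table by symbol, through the Ensembl identifier of each gene, out of 60664 genes in all. The cells were SF8628, a patient-derived diffuse midline glioma (DMG) line of the brainstem (diffuse intrinsic pontine glioma, DIPG) with the H3.3K27M histone mutation, which the cells of all 4 groups carry. Monolayers grown in serum-containing medium received the vehicle DMSO or 1 μM AZD5153 for 24 or 48 hours, and each of the 4 groups of treatment and time had 3 libraries, 12 in all. AZD5153 is a bivalent inhibitor of the bromodomain and extra-terminal (BET) proteins, which read acetylated histones, and the comparison asks how transcripts respond when BET bromodomain activity is blocked. The data describe a single cell line in culture, without the stroma, vessels or immune cells of a tumor.

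Receptor tyrosine kinases are membrane proteins that pair up when a growth factor binds outside the cell, phosphorylate each other's tails and so recruit adaptors such as GRB2, SHC and IRS proteins. These adaptors switch on the RAS-MAPK and PI3K-AKT cascades, which drive growth and survival, while phosphatases, ubiquitin ligases and Sprouty proteins dampen the signal. In glioma the PDGF and EGF receptors are the classic examples, and MET, AXL, FGFR1 and IGF1R are known as receptors that can stand in when another receptor is blocked.

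Between 15759148 and 27335220 reads fell on genes in a library. Values are normalized counts, which are read counts divided by a size factor of each library. DMSO replicate 1 at 24 hours stood apart: the chi-square per degree of freedom over genes, which would be near unity for counting error alone, was 15.2 and 22.9 against replicates 2 and 3 and 4.67 between these, and it lay between 2.09 and 4.82 in the other 3 groups. Results that use the DMSO libraries at 24 hours are therefore also given without replicate 1 where a call changed or a called value moved by over 1.5 times. Nothing in the labels says that replicate libraries came from separate cultures, so p-values measure the spread between these libraries, which may be technical. HEXIM1, a gene known to rise under BET inhibition, rose by 2.17 on the log2 scale at 24 hours and by 2.05 at 48 hours. Of the glial and progenitor markers, VIM, CD44, CSPG4, NES and SOX2 averaged 18049, 6404, 1581, 1336 and 191 normalized counts. S100B and GFAP were lower, at 64.4 and 35.0. The oligodendrocyte lineage markers OLIG1 and OLIG2 had no read in any library and SOX10 averaged 1.01.

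Per kilobase of merged exons, AXL, MET and PDGFRB had the highest levels of the 10 receptors in DMSO. AXL stood at 1369 ± 132 normalized counts at 24 hours (mean ± SD, n = 3), MET at 556 ± 53.6, PDGFRB at 451 ± 26.3, EGFR at 223 ± 8.49, FGFR1 at 194 ± 15.4, ERBB2 at 156 ± 8.40, IGF1R at 140 ± 6.30 and ERBB3 at 1.90 ± 0.0762. The libraries of neighbours in this order did not overlap, although ERBB2 and IGF1R came within a count of each other. After 48 hours in DMSO the order was AXL (771 ± 6.80), PDGFRB (614 ± 20.2), MET (365 ± 6.91), FGFR1 (210 ± 2.35), ERBB2 (177 ± 4.40), EGFR (169 ± 5.29), IGF1R (155 ± 5.59) and ERBB3 (2.60 ± 1.00), and only ERBB2 and EGFR overlapped.

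With AZD5153 PDGFRB, among the highest of these levels in DMSO, was the lowest of the 7 receptors with clear expression at 24 hours. Per kilobase of merged exons, the order with AZD5153 at 24 hours was AXL (1603 ± 52.4), MET (521 ± 21.7), FGFR1 (346 ± 14.5), EGFR (199 ± 11.3), IGF1R (176 ± 6.99), ERBB2 (157 ± 9.0) and PDGFRB (115 ± 4.81), with no overlap between neighbours. At 48 hours it was AXL (717 ± 13.4), MET (395 ± 5.65), FGFR1 (314 ± 3.47), EGFR (179.5 ± 3.12), ERBB2 (162 ± 11.5), IGF1R (154 ± 5.70) and PDGFRB (153 ± 3.75), and the last 3 overlapped one another. ERBB3 stayed below all of them, at 3.12 ± 0.972 and 2.80 ± 1.73.

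As a share of the level per kilobase summed over the 10 genes, PDGFRB made up 14.6% ± 0.356 in DMSO and 3.68% ± 0.115 with AZD5153 at 24 hours (SD, n = 3), and 24.9% ± 0.508 and 7.35% ± 0.210 at 48 hours. FGFR1 went the other way, from 6.28% ± 0.271 to 11.1% ± 0.401 and from 8.54% ± 0.113 to 15.1% ± 0.0825. AXL held 44.2% ± 2.47 and 51.4% ± 1.11 at 24 hours, and 31.3% ± 0.450 and 34.5% ± 0.634 at 48 hours. With the length of the canonical transcript in place of merged exons, an alternative chosen after seeing the data, FGFR1 held 14.3% and 23.9% at 24 hours and 18.2% and 29.9% at 48 hours, and ranked above AXL (24.6%) with AZD5153 at 48 hours. On that length PDGFRB held 13.7% and 3.30%, then 22.1% and 6.02%. In DMSO at 24 hours FGFR1 (SD 0.569) and PDGFRB (SD 0.289) then lay within their spread, and at 48 hours FGFR1 ranked above MET (11.1%), where ERBB2 (11.5%) was above MET too. With AZD5153 at 48 hours PDGFRB (6.02%) was above IGF1R (5.51%) on that length.

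**Figure D1:**
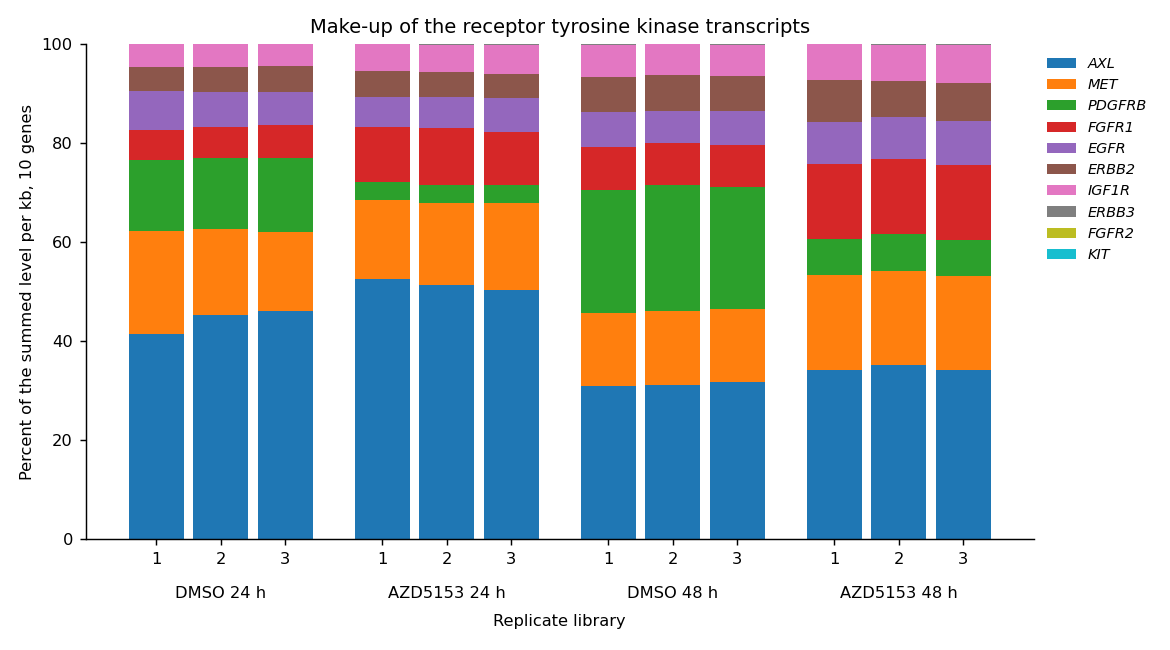
Stacked bars show, for each of the 12 libraries, the percent that each gene contributed to the normalized counts per kilobase of merged exons summed over the 10 receptor genes. The PDGFRB band narrowed at 24 hours (14.6% to 3.68%) and at 48 hours (24.9% to 7.35%), while the FGFR1 band widened; ERBB3, FGFR2 and KIT are too low to see.

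Of the 10 receptors, 8 reached a mean of 10 normalized counts and were tested with limma on log2(normalized count + 1), with Benjamini-Hochberg adjustment over the 15599 genes tested. At 24 hours 3 of them were higher with AZD5153 than in DMSO (FGFR1, IGF1R and AXL), 2 were lower (PDGFRB and EGFR) and 3 did not pass the threshold of 0.05, beside 68.5% of all tested genes called. At 48 hours FGFR1 was higher, PDGFRB was lower and the other 6 did not pass, beside 67.0% of all tested genes. Without DMSO replicate 1 at 24 hours, 5 receptors were called at 48 hours, with MET (0.11) added to those higher and AXL (-0.10) and ERBB2 (-0.13) to those lower. The median log2 fold change over the 8 receptors was 0.12 at 24 hours and -0.0032 at 48 hours, against 0.00 over all tested genes at both times. The effect of AZD5153 differed between the times, by the test of the difference itself, in 4 of the 8 (24.5% of all tested genes): EGFR was higher relative to DMSO at 48 than at 24 hours, and FGFR1, AXL and IGF1R were lower. Of these, 2 were called without AZD5153 replicate 1 or 2 at 24 hours, DMSO replicate 2 at 48 hours or AZD5153 replicate 3 at 48 hours.

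**Figure D2:**
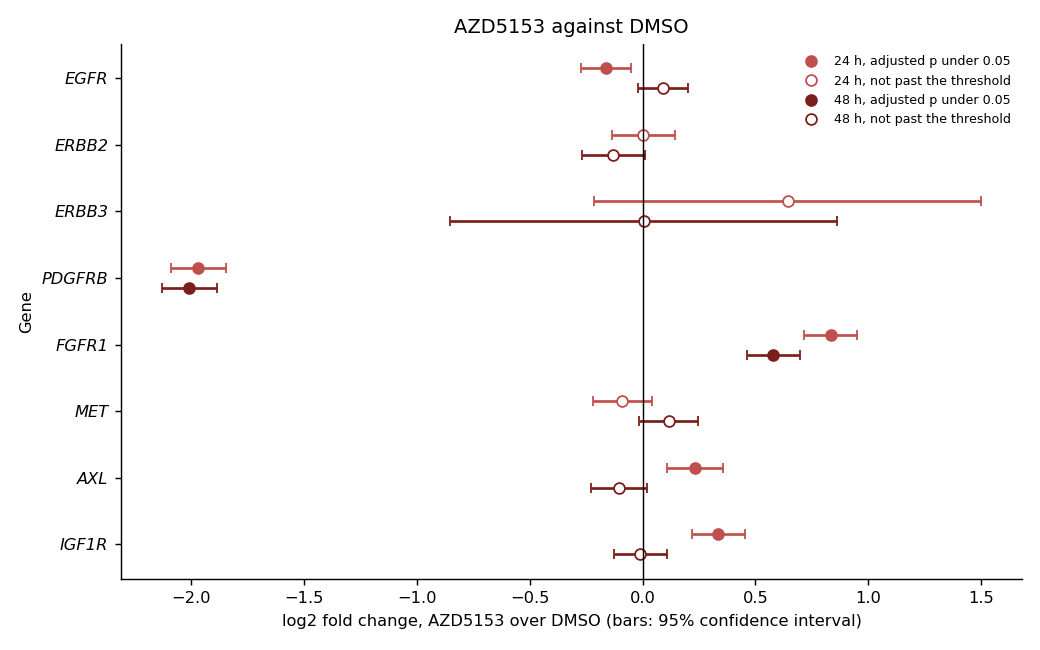
The log2 fold change of AZD5153 over DMSO is plotted for the 8 tested receptors at 24 and 48 hours, with bars for the 95% confidence interval and filled points for an adjusted p under 0.05. PDGFRB lay near -2 at both times, FGFR1 was above 0 at both, and the intervals of the other receptors reached or crossed 0 at 48 hours.

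PDGFRB, the receptor for PDGF-B and PDGF-D that is typical of pericytes and mesenchymal cells, had the largest response of the 10. The gene (ENSG00000113721) lies at chr5:150113839-150155872 on the minus strand of hg38. At 24 hours DMSO libraries held 3006, 3277 and 3366 normalized counts and AZD5153 libraries 858, 813 and 791. At 48 hours the DMSO libraries held 4368, 4534 and 4247 and the AZD5153 libraries 1062, 1116 and 1088. Every treated library was far below every control library of its time, and both arms were higher at 48 than at 24 hours. PDGFRB was 3.91-fold lower at 24 hours (log2 fold change -1.97, SE 0.06, adjusted p = 1.3e-13) and 4.02-fold lower at 48 hours (-2.01, SE 0.06, adjusted p = 1.2e-13). The effects at the 2 times differed by -0.04 (95% confidence interval -0.21 to 0.13, adjusted p = 0.77).

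The 250 bases before the RefSeq start of PDGFRB (GRCh38.p14, chr5:150155846-150156095, minus strand) are printed because this gene carries the largest change. They were searched on both strands for the GC box GGGCGG, reading CCGCCC for the other strand, which is in capitals:
PDGFRB: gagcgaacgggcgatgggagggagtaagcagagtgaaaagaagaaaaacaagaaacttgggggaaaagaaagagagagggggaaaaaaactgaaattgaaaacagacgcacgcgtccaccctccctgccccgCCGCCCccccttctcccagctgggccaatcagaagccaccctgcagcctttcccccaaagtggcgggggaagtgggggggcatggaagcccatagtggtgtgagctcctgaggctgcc
The window holds 1 GC box and 9 CpG dinucleotides and has a GC content of 58.4%. Of the 35116 promoters of the same length in the RefSeq table, 42.6% hold a GC box, and the medians are 11 CpG and 58% GC. Promoters were found in that table for 8 of the 10 receptors, with ERBB3 and FGFR1 missing.

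Transcripts of the PDGF pathway moved in both directions around the receptor. The ligand PDGFA, which signals mainly through the alpha receptor, fell at 24 hours from 223 ± 4.23 to 53.1 ± 8.93 normalized counts and at 48 hours from 238 ± 7.14 to 22.5 ± 1.24 (log2 fold change -2.06 and -3.34, adjusted p = 8.6e-09 and 2.8e-11). PDGFC fell too (-1.37 and -1.18). PDGFD, a ligand of the beta receptor, rose from 41.5 ± 7.21 to 261 ± 35.9 and from 38.1 ± 8.93 to 283 ± 39.3 (2.63 and 2.88, adjusted p = 8.0e-09 and 2.7e-09). PDGFB averaged 0.836 normalized counts and was not tested.

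CSF1R, the receptor for macrophage colony-stimulating factor and a neighbour of PDGFRB, fell beside it. CSF1R lies at chr5:150053291-150113372 on the same strand, and 466 bases separate its annotated start from the end of PDGFRB. Its level went at 24 hours from 189 ± 18.8 to 27.9 ± 6.14 and at 48 hours from 197 ± 18.2 to 34.9 ± 9.28 (-2.73 and -2.49, adjusted p = 8.2e-09 and 2.6e-08). The other myeloid markers PTPRC, AIF1, CD68 and ITGAM averaged 1.2, 0, 0.546 and 0.786. Whether reads that run on from PDGFRB were counted on CSF1R was not tested.

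The levels of mesenchymal and endothelial markers are given beside PDGFRB, in comparisons where 68.5% and 67.0% of all tested genes were called. All 5 of 5 mesenchymal markers (COL1A1, COL3A1, FN1, THY1 and LUM) averaged at least 10 normalized counts, and none was at 0 in all libraries. The log2 fold changes at 24 and 48 hours were -1.70 and -1.66 for COL1A1, -1.04 and -2.01 for FN1 and -1.86 and -2.38 for LUM, all called, whereas THY1 was lower at 24 hours (-0.48) and not called at 48 hours (0.05, adjusted p = 0.48). With AZD5153, FN1 and LUM were lower at 48 than at 24 hours (-0.59 and -1.12), THY1 and COL1A1 were higher (0.61 and 0.27), as PDGFRB was. COL3A1 averaged 51.6 normalized counts in the DMSO libraries and 1.07 in the AZD5153 libraries, and so passed the minimum mean of 10 only through DMSO. FN1 averaged 414111 normalized counts and makes up most of the sum, which ran from 565428 to 611701 in DMSO and from 274343 to 280686 with AZD5153 at 24 hours. At 48 hours the sum ran from 728807 to 775035 and from 188978 to 196685. Of 5 endothelial markers 4 averaged at least 10, CDH5 was at 0 in all libraries, and the sum, mostly PECAM1 (mean 223), ran at 24 hours from 366 to 409 in DMSO and from 73.4 to 101 with AZD5153. It was 660.2 to 698 and 64.2 to 84.8 after 48 hours. PECAM1 and VWF were lower at both times. TIE1 averaged 44.7 in DMSO and 8.89 with AZD5153, reaching a mean of 10 only through DMSO, and KDR, which reached a mean of 10 only through the AZD5153 libraries, stood at 1.10 at 24 hours (adjusted p = 0.041; 0.98, adjusted p = 0.065 with equal totals and 1.05, adjusted p = 0.055 with scaling to 7 stably expressed genes) and was not called at 48 hours (0.69, adjusted p = 0.19). Their part in the PDGFRB result was not tested, and in bulk RNA fewer cells of a kind cannot be told apart from less RNA per cell.

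FGFR1, a receptor for fibroblast growth factors, rose with AZD5153 at both times. The gene (ENSG00000077782) lies on chromosome 8 on the minus strand. DMSO libraries at 24 hours held 3046, 3428 and 3555 normalized counts and AZD5153 libraries 5981, 6186 and 5690.2. At 48 hours DMSO libraries held 3662, 3604 and 3584 and AZD5153 libraries 5473, 5382 and 5360.5. The treated libraries were above all control libraries at both times, and the gap was wider at 24 hours. FGFR1 was 1.78-fold higher at 24 hours (0.83, SE 0.06, adjusted p = 1.7e-09) and 1.49-fold higher at 48 hours (0.58, SE 0.06, adjusted p = 1.3e-07). The difference between the times was -0.25 (95% confidence interval -0.42 to -0.09, adjusted p = 0.027). That call was lost when any of these libraries was left out: AZD5153 replicate 1 or 2 at 24 hours, DMSO replicate 1 or 2 at 48 hours, or AZD5153 replicate 2 or 3 at 48 hours, with differences between -0.26 and -0.23. It was also lost with scaling to 7 stably expressed genes (-0.18, adjusted p = 0.17), no minimum mean (adjusted p = 0.058) and eBayes without trend (adjusted p = 0.074). LETM2, with which FGFR1 shares 138 exon bases on the opposite strand, averaged 87.8 normalized counts against 4579 for FGFR1, and the strand setting of the counting is not given in the sources used here.

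Of the 4 FGF receptors 3 were tested, and each was called higher with AZD5153 at both times, beside 68.5% and 67.0% of all tested genes called in either direction. FGFR3, low in DMSO, reached the minimum mean of 10 only through the AZD5153 libraries. FGFR3 and FGFR4, named after their values were seen because they share the family, had lower counts than FGFR1. FGFR3 went at 24 hours from 12.0 ± 4.33 to 207 ± 28.2 normalized counts and at 48 hours from 7.42 ± 2.71 to 112 ± 20.6 (4.05 and 3.78, adjusted p = 6.4e-09 and 1.4e-08). FGFR4 went from 409 ± 74.0 to 833 ± 73.8 and from 511 ± 67.4 to 642 ± 31.5 (1.04 and 0.34, adjusted p = 2.0e-06 and 0.025), and with libraries scaled to equal totals its value at 48 hours was 0.17 (adjusted p = 0.25). FGFR2 (ENSG00000066468, chr10:121478332-121598458) had 0 reads in all 12 libraries, which allows a level of at most 2.14 to 4.02 normalized counts, the value of 3 reads, depending on the library; this limit covers counting error only.

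Of 18 FGF genes, ligands of these receptors, 4 reached the minimum level and 3 of them were called, lower at both times, a share near the 68.5% and 67.0% of all tested genes called. FGF1 fell at 24 and 48 hours with log2 fold changes of -2.28 and -3.54, FGF2 with -1.68 and -0.79, and FGF5, the highest by count, with -0.68 and -0.89. FGF18 was the fourth, with log2 fold changes of 0.79 and 1.09 that did not pass the threshold.

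IGF1R, the receptor for insulin-like growth factors, rose at 24 hours. The gene (ENSG00000140443) lies at chr15:98648539-98964530. At 24 hours DMSO libraries held 1858, 2033 and 1953 normalized counts and AZD5153 libraries 2385, 2414 and 2567. At 48 hours DMSO libraries held 2248, 2124 and 2104 and AZD5153 libraries 2113, 2081 and 2231. The treated libraries were above the controls at 24 hours, and at 48 hours the groups overlapped. IGF1R was 1.26-fold higher at 24 hours (0.33, SE 0.06, adjusted p = 5.9e-05) and -0.01 (95% confidence interval -0.13 to 0.11, adjusted p = 0.86) at 48 hours on the log2 scale, and the difference between the times was -0.35 (SE 0.08, adjusted p = 0.0047). With libraries scaled to equal totals IGF1R was called lower at 48 hours (-0.18, adjusted p = 0.0075).

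The ligand genes IGF1 and IGF2 averaged 0.0939 and 0 normalized counts, so neither was tested. The related insulin receptor INSR was lower at both times (-0.46 and -0.44, adjusted p = 0.0027 and 0.0036), although quantile normalization gave -0.25 and -0.26 (adjusted p = 0.064 and 0.058). IGFBP4, which binds insulin-like growth factors outside the cell, fell at 24 hours from 12589 ± 2467 to 3122 ± 175 and at 48 hours from 7708 ± 389.7 to 1070.5 ± 58.5 (-1.99 and -2.85, adjusted p = 1.0e-10 and 1.6e-12). Of 6 IGF binding proteins 5 were tested, with 1 higher and 2 lower at 24 hours and 2 higher and 2 lower at 48 hours, beside 68.5% and 67.0% of all tested genes.

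AXL is a TAM family receptor that binds GAS6 and is linked to invasive mesenchymal states. Per kilobase of merged exons it was the most abundant of the 10 receptors in every group, and it changed more with time than with AZD5153. The gene (ENSG00000167601) lies at chr19:41219223-41261766. DMSO libraries at 24 hours held 6248, 7397 and 7443 normalized counts and AZD5153 libraries 8502, 8225 and 7964. At 48 hours DMSO libraries held 3921, 3990.3 and 3963 and AZD5153 libraries 3673, 3754 and 3618. Treated libraries lay above the controls at 24 hours and below them at 48 hours, in both cases by less than the fall between the times. AXL was 1.17-fold higher at 24 hours (0.23, SE 0.06, adjusted p = 0.0025), and 0.15 (adjusted p = 0.0028) without DMSO replicate 1, which was the lowest control. At 48 hours the log2 fold change was -0.10 (95% confidence interval -0.23 to 0.02, adjusted p = 0.13), and the difference between the times was -0.34 (SE 0.08, adjusted p = 0.0083; -0.26, adjusted p = 0.063 with scaling to 7 stably expressed genes). With libraries scaled to equal totals the value at 24 hours was 0.11 (adjusted p = 0.11), and at 48 hours AXL was called lower (-0.28, adjusted p = 0.0005). It was called lower at 48 hours under 3 other alternatives too: quantile normalization (-0.27, adjusted p = 0.0013), only the groups compared (-0.10, adjusted p = 0.011) and without DMSO replicate 1 at 24 hours (-0.10, adjusted p = 0.015).

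The other TAM receptors were lower with AZD5153 at both times, beside 68.5% and 67.0% of all tested genes called in either direction. TYRO3 fell from 791 ± 140.1 to 269 ± 32.7 and from 738 ± 38.2 to 197 ± 25.7 normalized counts (-1.54 and -1.91, adjusted p = 3.4e-08 and 2.6e-09). MERTK fell as well (-0.63 and -0.46). So did both TAM ligands, GAS6 (-0.56 and -0.73) and PROS1 (-0.76 and -1.13).

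EGFR, the receptor for EGF, TGF-alpha and HB-EGF, fell slightly at 24 hours. The gene (ENSG00000146648) lies at chr7:55019017-55211628. At 24 hours DMSO libraries held 3682, 3553 and 3412 normalized counts and AZD5153 libraries 3026, 3126 and 3375. At 48 hours DMSO libraries held 2777, 2609.9 and 2673 and AZD5153 libraries 2847, 2821 and 2917. The treated libraries were below the controls at 24 hours and above them at 48 hours, each by a narrow margin. The log2 fold change was -0.16 at 24 hours (SE 0.05, adjusted p = 0.013) and 0.09 at 48 hours (95% confidence interval -0.02 to 0.20, adjusted p = 0.14), with a difference of 0.25 between the times (SE 0.07, adjusted p = 0.022). The call at 24 hours was lost without AZD5153 replicate 1 (-0.13, adjusted p = 0.068) and when only the groups compared were fitted (-0.16, adjusted p = 0.053), a fit that called EGFR higher at 48 hours (0.09, adjusted p = 0.044). The call of the difference was lost without AZD5153 replicate 1 or 2 at 24 hours, DMSO replicate 2 at 48 hours or AZD5153 replicate 3 at 48 hours, with differences between 0.22 and 0.24, and also with quantile normalization (0.17, adjusted p = 0.11), equal totals (0.20, adjusted p = 0.061) and eBayes without trend (0.25, adjusted p = 0.055).

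Ligands of the EGF family were called in both directions. HBEGF rose at 24 hours from 322 ± 34.2 to 1067 ± 11.4 normalized counts and at 48 hours from 153 ± 7.08 to 789.6 ± 22.8 (1.73 and 2.36, adjusted p = 5.1e-11 and 1.4e-12). EGF rose by 0.51 and 0.48 on the log2 scale, and AREG by 0.65 and 0.55, the latter 0.38 (adjusted p = 0.11) with equal totals. NRG1, the ligand of ERBB3 and ERBB4, fell from 286 ± 42.9 to 39.3 ± 4.31 and from 95.4 ± 20.0 to 22.6 ± 4.34 (-2.83 and -2.02, adjusted p = 6.3e-09 and 3.4e-07). BTC fell (-0.78 and -1.02), and EREG, with the highest counts of the family, fell at 48 hours (-0.43). Of 11 EGF family ligands 9 were tested, with 4 higher and 3 lower at 24 hours and 4 higher and 4 lower at 48 hours, beside 68.5% and 67.0% of all tested genes called. Of the 9, NRG4 averaged 5.70 with AZD5153 and passed the minimum mean only through DMSO, and TGFA averaged 8.16 in DMSO and passed only through AZD5153.

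ERBB2, the partner kinase that has no ligand of its own, was called for AZD5153 at neither time, although 5 of 24 alternatives called it lower at 48 hours. The gene (ENSG00000141736) lies at chr17:39687914-39730426. DMSO libraries at 24 hours held 1511, 1668 and 1655 normalized counts and AZD5153 libraries 1714, 1604 and 1529. At 48 hours DMSO libraries held 1828, 1878 and 1787 and AZD5153 libraries 1804, 1570.0 and 1652. The groups overlapped at both times. The log2 fold changes were 0.00 (95% confidence interval -0.14 to 0.14, adjusted p = 0.96) and -0.13 (-0.27 to 0.01, adjusted p = 0.091). At 48 hours equal totals gave -0.30 (adjusted p = 0.00063) and quantile normalization -0.23 (adjusted p = 0.0047), and the call was also made with only the groups compared (-0.13, adjusted p = 0.023), without DMSO replicate 1 at 24 hours (-0.13, adjusted p = 0.039) and without AZD5153 replicate 1 at 48 hours (-0.18, adjusted p = 0.033). ERBB2 shares exon bases on the opposite strand with MIEN1 (571 bases) and PGAP3 (144 bases), which averaged 539 and 326 normalized counts against 1683 for ERBB2.

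ERBB3, which binds neuregulins and signals through ERBB2, was the lowest of the 8 receptors tested out of the 10. The gene (ENSG00000065361) lies at chr12:56076799-56103505. DMSO libraries held 21.4, 22.1 and 23.2 normalized counts at 24 hours and AZD5153 libraries 24.1, 38.9 and 46.5. At 48 hours the values were 30.6, 18.6 and 42.1 in DMSO and 16.4, 55.4 and 26.5 with AZD5153. All treated libraries were above the controls at 24 hours, and the groups overlapped at 48 hours. Log2 fold changes of 0.64 (95% confidence interval -0.21 to 1.5, adjusted p = 0.17) and 0.01 (-0.85 to 0.86, adjusted p = 0.99) did not pass, and the intervals reach to either side of 0. ERBB4, the fourth member of the family, was lower at 24 hours (-0.73, adjusted p = 0.034; -0.60, adjusted p = 0.079 with quantile normalization) and at 0.30 (adjusted p = 0.37) at 48 hours.

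MET, the receptor for hepatocyte growth factor, was not called for AZD5153 at either time, although some alternatives called it. The gene (ENSG00000105976) lies at chr7:116672196-116798377. At 24 hours DMSO libraries held 4408, 4014 and 3634 normalized counts and AZD5153 libraries 3619, 3750.5 and 3931. At 48 hours DMSO libraries held 2647, 2676 and 2578 and AZD5153 libraries 2898, 2821 and 2836. The groups overlapped at 24 hours, and at 48 hours the treated libraries were slightly above the controls. The log2 fold changes were -0.09 (95% confidence interval -0.22 to 0.04, adjusted p = 0.21) and 0.11 (-0.02 to 0.24, adjusted p = 0.11). The value at 24 hours was -0.02 (adjusted p = 0.73) without DMSO replicate 1, and it was called lower without DMSO replicate 3 (-0.16, adjusted p = 0.017) and with libraries scaled to equal totals (-0.21, adjusted p = 0.0071). The value at 48 hours was called higher under 3 alternatives, namely when only the groups compared were fitted (adjusted p = 0.011) and without DMSO replicate 1 or 3 at 24 hours (adjusted p = 0.027 and 0.048). Equal totals (-0.057) and quantile normalization (-0.0032) turned its direction without a call. Its ligand HGF fell at 24 hours from 6888 ± 519.7 to 1924 ± 149 normalized counts and at 48 hours from 5229 ± 88.0 to 1627 ± 99.3 (-1.84 and -1.69, adjusted p = 1.6e-12 and 4.4e-12).

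KIT (ENSG00000157404, chr4:54657267-54740783), the stem cell factor receptor, had 3 reads in all, in AZD5153 replicates 1 and 2 at 48 hours (0.912 and 2.17 normalized counts). The other 10 libraries had none, and it was not tested. Its ligand KITLG was well expressed and rose at 24 hours from 912 ± 27.4 to 1142 ± 83.1 normalized counts and at 48 hours from 589.8 ± 31.7 to 1306 ± 47.5 (0.32 and 1.15, adjusted p = 0.00065 and 5.6e-10).

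**Figure D3:**
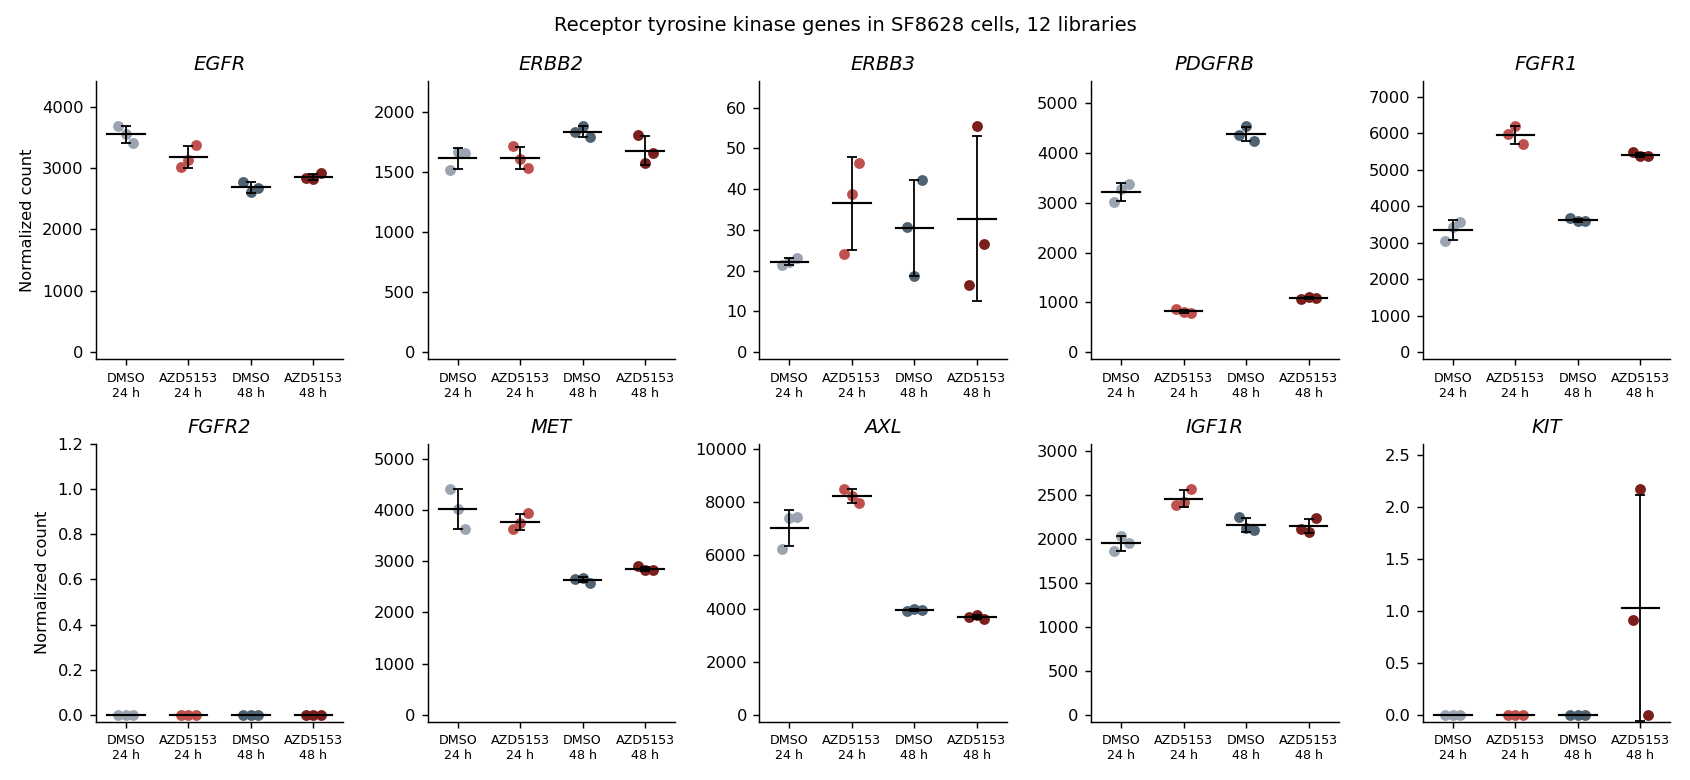
Each panel plots the normalized count of 1 receptor gene in the 12 libraries, with points for libraries, horizontal lines for group means and error bars for the SD over 3 libraries. PDGFRB was low in all AZD5153 libraries, FGFR1 was high in them, AXL, MET and EGFR were lower at 48 than at 24 hours, and FGFR2 had no read.

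AXL, MET and EGFR fell and PDGFRB rose between 24 and 48 hours in both arms. In DMSO 3 of the 8 were higher at 48 than at 24 hours (PDGFRB, ERBB2 and IGF1R) and 3 were lower (AXL, MET and EGFR), beside 35.7% of all tested genes called. AXL fell 1.77-fold (-0.82, SE 0.06, adjusted p = 1.3e-07), MET 1.52-fold (-0.61, SE 0.06, adjusted p = 3.2e-06) and EGFR 1.32-fold (-0.40, SE 0.05, adjusted p = 3.2e-05), while PDGFRB rose 1.36-fold (0.45, SE 0.06, adjusted p = 2.8e-05). The smaller rises of ERBB2 (0.19, adjusted p = 0.038) and IGF1R (0.15, adjusted p = 0.047) were not called without DMSO replicate 1 at 24 hours (0.14 and 0.11, adjusted p = 0.083 and 0.10), and lost the call under 10 and 15 of the 24 alternatives run.

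With AZD5153, 1 receptor was higher at 48 than at 24 hours (PDGFRB) and 4 were lower (AXL, MET, EGFR and IGF1R), beside 29.7% of all tested genes; without DMSO replicate 1 at 24 hours FGFR1 was called lower as well (-0.14, adjusted p = 0.0067). AXL fell 2.23-fold (-1.16, SE 0.06, adjusted p = 1.8e-09), MET 1.32-fold (-0.40, SE 0.06, adjusted p = 0.00015), IGF1R 1.15-fold (-0.20, SE 0.06, adjusted p = 0.013) and EGFR 1.11-fold (-0.15, SE 0.05, adjusted p = 0.043). PDGFRB rose 1.33-fold (0.41, SE 0.06, adjusted p = 7.1e-05). The EGFR call was lost under 14 of 24 alternatives, and 3 receptors in place of 5 were called without AZD5153 replicate 3 at 24 hours or replicate 2 at 48 hours. Over the 12 libraries the Pearson correlation of log2 values was 0.95 between EGFR and MET, 0.87 between MET and AXL and 0.75 between EGFR and AXL, a description of libraries that share 4 group means. Cell density and other culture conditions at harvest are not given in the sources used here.

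**Figure D4:**
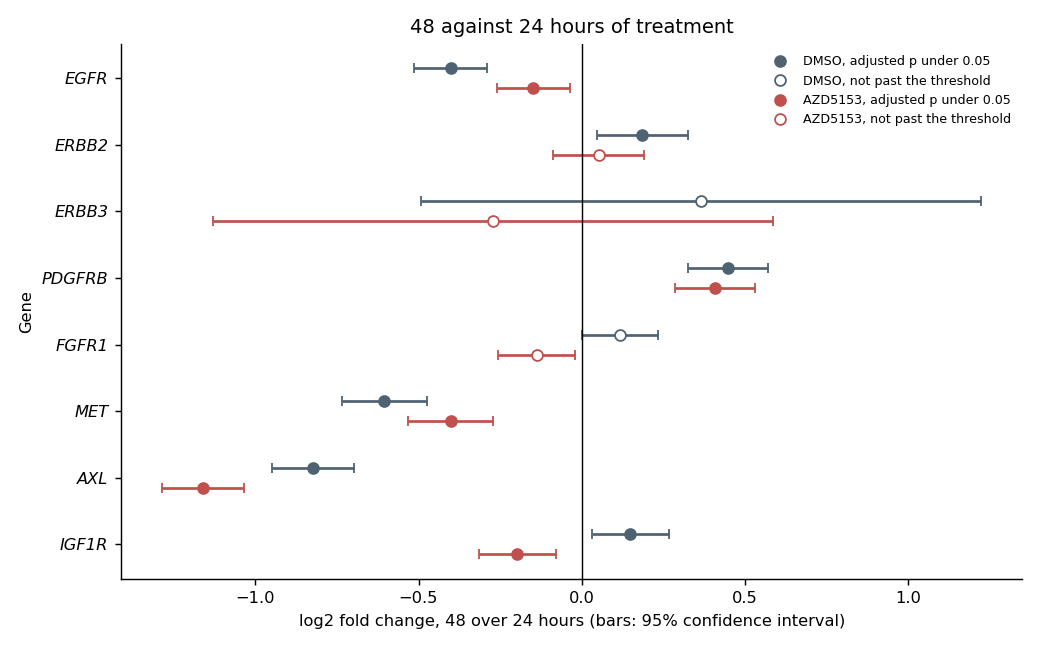
The log2 fold change of 48 over 24 hours is plotted for the 8 tested receptors in DMSO and in AZD5153, with bars for the 95% confidence interval and filled points for an adjusted p under 0.05. AXL, MET and EGFR were below 0 and PDGFRB above 0 in both arms, while IGF1R was above 0 in DMSO and below 0 with AZD5153.

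The 250 bases before the RefSeq starts of EGFR (chr7:55018767-55019016), MET (chr7:116671946-116672195) and AXL (chr19:41218973-41219222), for EGFR and AXL the first of 2 starts in that table, and all on the plus strand of GRCh38.p14, are printed because these genes fell together with time. GC boxes on either strand (GGGCGG or CCGCCC) are in capitals:
EGFR: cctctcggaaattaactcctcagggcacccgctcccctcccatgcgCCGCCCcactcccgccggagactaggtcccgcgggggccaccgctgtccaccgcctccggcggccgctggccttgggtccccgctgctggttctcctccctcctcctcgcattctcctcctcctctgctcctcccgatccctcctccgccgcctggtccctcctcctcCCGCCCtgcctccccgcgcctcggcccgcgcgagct
MET: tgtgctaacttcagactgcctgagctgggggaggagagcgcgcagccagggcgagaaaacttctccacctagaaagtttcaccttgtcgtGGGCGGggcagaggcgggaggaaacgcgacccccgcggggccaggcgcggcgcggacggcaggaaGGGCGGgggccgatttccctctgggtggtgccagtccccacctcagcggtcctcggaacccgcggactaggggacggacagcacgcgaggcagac
AXL: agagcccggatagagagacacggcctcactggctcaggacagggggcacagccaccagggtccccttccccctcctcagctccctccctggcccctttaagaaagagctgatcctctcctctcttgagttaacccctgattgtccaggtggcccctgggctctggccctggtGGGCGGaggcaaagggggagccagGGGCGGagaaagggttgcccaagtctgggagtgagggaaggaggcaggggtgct
Each printed window holds 2 GC boxes, but the windows of the second starts of EGFR and AXL hold 0. The window of IGF1R, which did not fall with time in DMSO, also holds 2, while that of ERBB2 holds 0. The count of 2 thus depends on the start chosen and is not particular to the genes that fell. How many of all promoters hold 2 boxes was not counted. The printed windows differ in CpG dinucleotides, with 25 in EGFR, 24 in MET and 4 in AXL. PDGFRB holds 9, and the median over all promoters is 11. GC content was 73.6% in EGFR, 68.4% in MET and 64.4% in AXL.

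More ligand genes were lower than higher with AZD5153. Of 39 ligands of these receptors 20 were tested, and 6 were higher and 11 lower at 24 hours, 6 higher and 12 lower at 48 hours, beside 68.5% and 67.0% of all tested genes called in either direction at these times. In 3 of the 20 (FGF18, NRG4 and TGFA) the mean of 1 arm was under 10, so they passed the minimum only through the other. Their median log2 fold changes were -0.62 and -0.76, against 0.00 over all tested genes at both times. By the rule for named genes the largest rises were PDGFD, HBEGF and KITLG and the largest falls PDGFA, NRG1 and HGF, each given above.

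**Figure D5:**
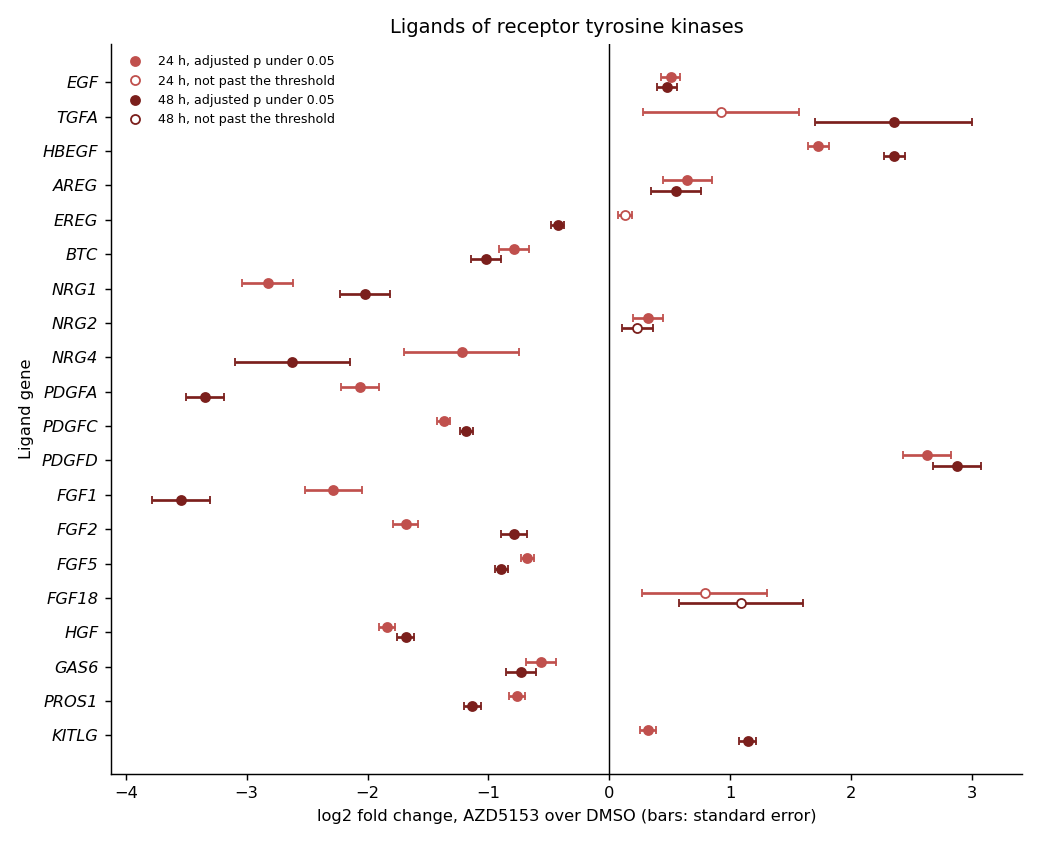
The log2 fold change of AZD5153 over DMSO is plotted for the 20 tested ligand genes at 24 and 48 hours, with bars for the standard error and filled points for an adjusted p under 0.05. PDGFD, HBEGF and KITLG lay above 0 at both times, and PDGFA, FGF1, NRG1, NRG4 and HGF lay below 0.

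Receptor tyrosine kinases outside the 10 were called in both directions. Of 47 such genes 30 were tested, with 11 higher and 16 lower at 24 hours and 9 higher and 13 lower at 48 hours, and medians of -0.47 and -0.39, beside 68.5% and 67.0% of all tested genes called, and 4 of the 30 (ALK, FGFR3, KDR and TIE1) averaged under 10 in 1 arm. The largest rises by the rule were AATK (3.01 and 1.71), a kinase of neurons, EPHA2 (1.03 and 0.85), an ephrin receptor, and LMTK2 (0.68 and 0.72). The largest falls were CSF1R, DDR2 (-2.27 and -1.80), a collagen receptor, and ROR1 (-2.21 and -1.67), a receptor for WNT5A. DDR2 went at 24 hours from 5665 ± 425 to 1169 ± 65.5 normalized counts and at 48 hours from 6319 ± 119.5 to 1817 ± 30.3.

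Adaptors next to the receptors were split. Of 21 tested, 9 were higher and 6 lower at 24 hours and 10 higher and 7 lower at 48 hours, shares of 71.4% and 81.0% against 68.5% and 67.0% of all tested genes. PTPN11, which encodes the phosphatase SHP2, rose from 8626 ± 351 to 12621 ± 396 and from 6809 ± 148 to 12786 ± 319 (0.55 and 0.91, adjusted p = 1.6e-08 and 4.0e-11). The insulin receptor substrates parted: IRS2 rose by 1.10 and 0.74 on the log2 scale, and IRS1 fell (-1.61 and -1.88). GRB14 rose (0.87 and 0.97), and SHC3 and DOK1 fell (-1.79 and -1.88, and -0.77 and -1.05).

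In the RAS-MAPK core 5 of 11 genes were higher at both times, and 4 were lower at 24 and 2 at 48 hours (81.8% and 63.6% called, beside the same 68.5% and 67.0%). MAP2K1 (1.09 and 0.92) and ARAF (0.72 and 0.60) rose, and MAPK3 (-1.28 and -1.99) and NRAS (-0.94 and -0.83) fell. Of 12 tested PI3K-AKT genes 6 were higher and 5 lower at 24 hours, and 5 and 5 at 48 hours (91.7% and 83.3% called). The regulatory subunits PIK3R3 (1.54 and 2.25) and PIK3R1 (0.50 and 0.89) and the kinase PDPK1 (0.81 and 1.02) rose, whereas the lipid phosphatases INPPL1 (-1.13 and -1.13) and INPP4B (-0.76 and -1.19) fell.

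Among 22 tested negative regulators 6 were higher and 10 lower at 24 hours, and 5 higher and 12 lower at 48 hours, which is 72.7% and 77.3% called beside 68.5% and 67.0% of all tested genes. The ERK phosphatase DUSP6 rose from 559 ± 64.9 to 1511 ± 70.8 and from 593 ± 59.5 to 1039 ± 102 (1.44 and 0.81, adjusted p = 2.0e-09 and 1.8e-06), and DUSP5 (1.09 and 0.22) and PTPN1 (0.69 and 0.99) rose as well. LRIG3 (-1.58 and -1.38), RASA1 (-1.35 and -1.33) and SPRED3 (-1.20 and -1.46) fell. Of 10 genes that ERK signaling is known to induce, 5 were higher and 2 lower at 24 hours and 4 and 4 at 48 hours (70% and 80% called). Of these 10 genes 6 (DUSP4, DUSP6, EPHA2, EPHA4, SPRY2 and SPRY4) also stand in the lists of receptors or negative regulators above. CCND1 (1.33 and 1.05) rose with DUSP6 and EPHA2, and ETV4 (-1.56 and -1.56) and PHLDA1 (-0.74 and -0.81) fell. All 6 sheddases, proteases that release ligands or receptor ectodomains, were called at both times, where 68.5% and 67.0% of all tested genes were, with ADAM15 (0.72 and 0.88) and ADAM10 (0.15 and 0.14) higher and 4 lower, led by ADAM12 (-1.89 and -2.12), ADAM19 (-0.38 and -0.32) and ADAM17 (-0.29 and -0.38). ADAM10 stood at 0.03 and -0.03 with equal totals, ADAM19 at -0.21 and -0.12 with quantile normalization and DUSP5 at 0.04 at 48 hours with equal totals, none of them called there.

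Profiles most like each receptor were sought by the Pearson correlation of log2 values over the 12 libraries, over genes that averaged 100 normalized counts or more. PDGFRB was nearest to PDE4DIP, NHLRC3 and MORN4 (0.996, 0.996 and 0.996) and FGFR1 to ZFP36, MIDN and PIEZO1 (0.998, 0.995 and 0.995). These receptors follow the split between treated and control libraries, which many genes share: 1515 genes correlated above 0.9 with PDGFRB and 1554 with FGFR1. EGFR was nearest to NOC3L, DLC1 and BZW1 (0.988, 0.979 and 0.979), while TUBA1C and CDH2 were among the genes nearest to MET (0.981 and 0.976) and HIPK2 and APCDD1L-DT among those nearest to AXL (0.984 and 0.980), with 108, 114 and 55 genes above 0.9. IGF1R was nearest to TSPYL5, DUSP5 and NBPF15 (0.941, 0.922 and 0.919), ERBB2 to SHC1, BAIAP2-DT and MATCAP1 (0.904, 0.902 and 0.893) and ERBB3 to RELL2, ATXN2 and MAP10 (0.689, 0.674 and 0.655). SHC1 encodes an adaptor that binds ErbB receptors. These correlations describe 12 libraries that share 4 group means and carry no test.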

How the data were processed

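RNA-Seq of SF8628 cells was measured in 12 libraries, 3 in each of 4 groups named by treatment and time in the sample titles. The authors prepared NEBNext Ultra II libraries, and used STAR for alignment (hg38), HTSeq for gene counting and DESeq2 for normalization and testing; tool versions and the strand setting of the counting are not given in the sources used here. Library columns, as deposited, are a signal made of gene counts over a DESeq2 size factor, and 100% of them returned whole reads within 0.02 of a read, from 15759148 to 27335220 per library. The 6 columns of the authors' own comparisons (fold changes, errors and p-values) were not used, nor were the CUT&RUN samples.

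Log2(normalized count + 1) of the 15599 genes averaging 10 or more was fitted over the 4 groups with limma 3.58.1 (eBayes with trend, two-sided, 8 residual degrees of freedom), with Benjamini-Hochberg adjustment at 0.05, in R 4.3.3. In simulated data for the 24-hour comparison 183 of 198 genes changed 2-fold were recovered (92.4%), over 15609 genes, and 187 of 198 for the 48-hour comparison. The simulation used the same dispersion, a measure of spread, for every gene and gave no library extra noise. It changed far fewer genes than were called in the data, so its recovery need not hold there. Alternatives were edgeR 4.0.16 (quasi-likelihood) and DESeq2 1.42.0 on the recovered reads, other scalings, pseudocounts and minimum means, a replicate block, and leaving out each library. Symbols, positions, overlaps and exon lengths came from GENCODE 44 (hg38), and promoters from RefSeq (GRCh38.p14).

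Named genes were all 10 receptors, HEXIM1, for each pathway list up to 3 rises and 3 falls that were largest by the mean of the 24- and 48-hour log2 fold changes among genes averaging 100 or more that were called in the same direction at both times, and for each tested receptor the 3 genes most correlated with it. Some genes that the rule names are not reported here. Other family members and ligands were named after their values were seen. The receptors and the lists were chosen with earlier results of these data known.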

Additional observations from a re-analysis of the deposited data

Results flagged for a closer look

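The effect of AZD5153 differed between 24 and 48 hours in 4 receptors, by limma's test of the difference itself over all genes. The 48-hour minus 24-hour effect was 0.25 for EGFR, -0.25 for FGFR1, -0.34 for AXL and -0.35 for IGF1R on the log2 scale. IGF1R kept its call under all 23 alternatives that gave a value, AXL under 22 (scaling to 7 stably expressed genes gave -0.26, adjusted p = 0.063), EGFR under 16 and FGFR1 under 14.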

How the results depend on the processing

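Under 24 alternatives the 8 tested receptors gave 947 values, of which 841 kept their direction and their side of the threshold, 62 lost the call, 25 gained it and 19 changed sign, none of the last called under either setting. PDGFRB stayed lower (-2.18 to -1.94) and FGFR1 higher (0.41 to 0.88), called at both times under all 24. With libraries scaled to equal totals, which shifts the median of all genes by -0.12 at 24 and -0.17 at 48 hours, ERBB2 was -0.12 at 24 hours and EGFR, ERBB3 and MET were -0.080, -0.16 and -0.057 at 48 hours, and 5 receptors were called at 48 hours. Quantile normalization gave ERBB2 -0.0049 at 24 hours, EGFR -0.024 and MET -0.0032 at 48 hours and 4 receptors called at 48 hours. Scaling to 7 stably expressed genes gave ERBB2 -0.043 at 24 hours, IGF1R 0.015 at 48 hours, PDGFRB 0.034 for the difference between times, and 3 receptors called for time with AZD5153. Fitting only the groups compared called 6 receptors at 48 hours and gives no value for the difference between times; eBayes without trend called 2 for that difference. A minimum mean of 100 leaves ERBB3 without a value.

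Leaving out each library in turn, the receptors called ranged from 4 to 6 at 24 hours, 2 to 5 at 48 hours, 2 to 5 for the difference between times, 4 to 6 for time in DMSO and 3 to 6 for time with AZD5153. Values that changed sign ranged from -0.042 to 0.043 for ERBB2 at 24 hours, -0.45 to 0.40 for ERBB3 and -0.042 to 0.018 for IGF1R at 48 hours, -0.073 to 0.0088 for the PDGFRB difference, and -0.0029 to 0.10 for ERBB2 and -0.73 to 0.12 for ERBB3 over time with AZD5153. The cause of these shifts was not tested.

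Of all genes called, the share higher was 49.5% at 24 and 49.4% at 48 hours; equal totals gave 40.8% and 37.4%, and 56.2% against 45.8% for time in DMSO and 48.2% against 58.9% for the difference. Scaling to 7 stable genes gave 70.8% for the difference, and 71.3% against 53.4% for time with AZD5153. Same-numbered replicates did not deviate together (correlations from -0.151 to 0.0363). With 3 libraries in a group this cannot exclude that the numbers pair the samples. With the replicate block 5 receptors were called at 24 hours, 2 at 48 hours and 4 for the difference, and 4 for time in DMSO and 4 with AZD5153. The depth limits KIT and FGFR2, at or below 3 reads in all.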
